A study of Mus musculus with 4 samples.

Results

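Transduced regulatory T cell (Treg) samples, 2 in number, were compared, 1 array each: the array labelled si-Eos, from cells given a lentiviral short hairpin RNA against Eos, and the array labelled si-RL, from cells given a hairpin against Renilla luciferase, which mouse cells lack. They are 2 of the 4 arrays of the series and were chosen by their labels. Both samples were natural Treg (CD4+CD25+) of BALB/c spleen and lymph nodes, transduced with a vector that also carried GFP, kept for 60 h in medium that held human IL-2. Cells positive for GFP were then sorted out. The other 2 arrays, of untransduced natural Treg and of CD4+CD25- naive T cells, are used only for context and are called fresh Treg and naive T cells here. The labels give neither the number of mice nor how many hairpins or transductions stood behind a sample. Since each group is 1 array, there is no spread between replicates, no test and no p-value, and every difference is a difference between 2 libraries.

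Treg are CD4 T cells that restrain other immune cells, and the transcription factor Foxp3 is needed for their identity. Eos, encoded by Ikzf4, is a zinc-finger protein of the Ikaros family that binds Foxp3 and the corepressor CtBP, and the series asked from its title whether it takes part in silencing of genes by Foxp3. A working Eos hairpin would lower Ikzf4 mRNA, which is therefore the check on the labels.

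Levels are given as scaled levels: the processed signal of a gene's brightest probe, in percent of that array's 75th percentile, so that 100 is the 75th percentile. A scaled level follows 1 probe across arrays and does not rank genes against each other. Differences are log2 of the level on the array labelled si-Eos minus that on the array labelled si-RL, and the ± beside one is the scanner software's error for the pair of spots. That error was 0.21 at the median and 0.29 at the 90th percentile of genes, and it leaves out any spread between cultures. Differences of dim genes depend on the background correction. The value with normexp, a model-based correction, therefore stands beside a difference that it made smaller by over 1.5 times or brought under 2-fold. Bounds written as "at least N-fold", for genes above background on 1 hairpin array, hold under the scanner software's background correction. They were not computed with normexp. Of 27587 genes on the array, 17074 were measured, that is, well above background on both hairpin arrays. The share of 41174 probes well above background was 68.3% on the array labelled si-Eos and 64.0% on the array labelled si-RL, and the 75th percentiles of the signal were 320 and 262. Where a gene has several probes, the 5′-most read lower than the 3′-most by a median log2 difference of -0.90 on the first and -0.77 on the second, over 5065 genes, so the gap was a little wider in the former. In bulk RNA, fewer cells of a type and less RNA per cell cannot be told apart.

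Eos itself went against the labels. The scaled level of Ikzf4 was 63.6 in naive T cells, 92.6 in fresh Treg, 77.9 on the array labelled si-Eos and 40.9 on the array labelled si-RL. The array that should carry less Eos mRNA thus carried more, by 0.93 ± 0.21 on this probe (chr10:128036782-128036841, mm8) and by 1.96 ± 0.21 and 1.19 ± 0.22 on the others. The levels of Foxp3 were 21.3 in naive T cells, 454 in fresh Treg, 826 on the array labelled si-Eos and 42 on the array labelled si-RL, a difference of 4.30 ± 0.21 (chrX:6751991-6752050, mm8). On the array labelled si-RL, Foxp3 was thus nearer to naive T cells than to fresh Treg. Whether the hairpin lies within the probed stretch was not analysed here. All signs below hold for the arrays as labelled, and each would turn if the labels were exchanged.

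The other Ikaros factors did not move as a block. Ikzf2 (Helios, a factor of most thymic Treg) had levels of 128, 2940, 2294 and 190 in naive T cells, fresh Treg, the array labelled si-Eos and the array labelled si-RL, in the order used for all such quartets below. Its difference of 3.59 ± 0.20 was 3.33 to 4.0 over 5 probes. Ikzf1 (Ikaros) ran the other way, with levels of 2570, 1547, 491 and 1592 and a difference of -1.70 ± 0.20. Ikzf3 (Aiolos) was at 273, 568, 1297 and 481, or 1.43 ± 0.20, but its other probes gave 0.08, 0.45 and 0.76. Ikzf5 (Pegasus) was at 93, 79, 74.4 and 111, or -0.58 ± 0.20. So 2 family members were at least 2-fold higher and 1 at least 2-fold lower on the array labelled si-Eos, with Ikzf4 just under 2-fold on its brightest probe.

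**Figure D1:**
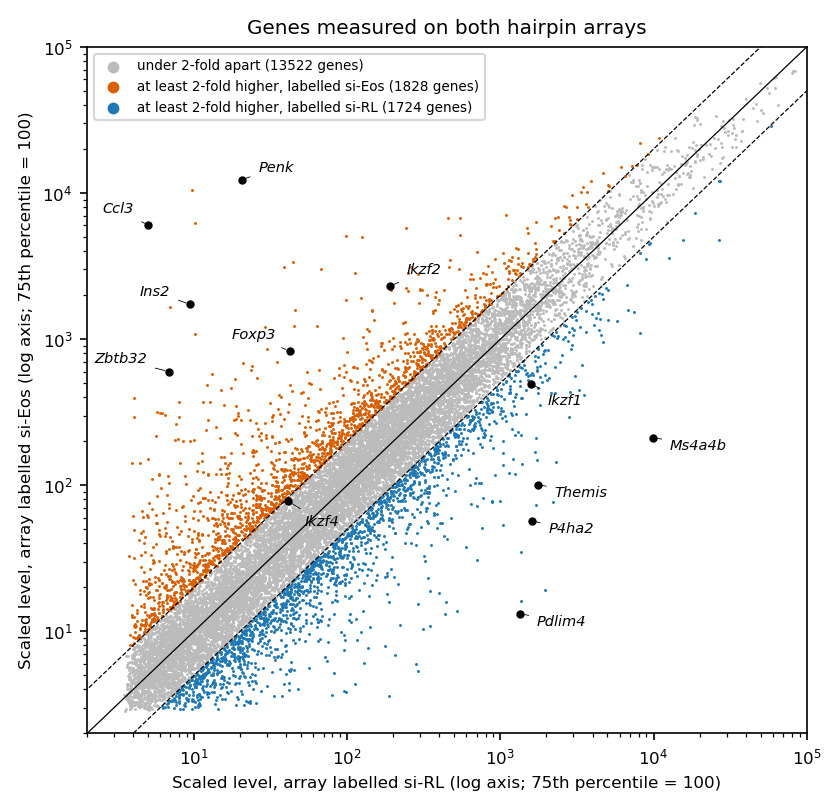
Scaled level of each of 17074 measured genes on the array labelled si-Eos (vertical) against the array labelled si-RL (horizontal), both on log axes, with the line of equality and dashed lines at 2-fold. The 1828 genes at least 2-fold higher on the array labelled si-Eos (orange) include Foxp3 and Ikzf2, the 1724 lower genes (blue) include Ikzf1 and Themis, and Ikzf4 lies just inside the upper dashed line.

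The array labelled si-Eos was higher by 2-fold or more in 1828 (10.7%) of all measured genes and lower by as much in 1724 (10.1%), and at 4-fold the counts were 415 (2.43%) and 305 (1.79%). Without scaling between arrays the 2-fold counts were 3093 and 1025, and the share of higher genes among those apart moved from 51.5% to 75.1%, since the median of all genes then lay at 0.33. The median difference was 0.04 and the SD across genes 0.96. Every count of measured genes in a list below is to be read beside 10.7% and 10.1%. Counts of genes above background on 1 hairpin array alone have another background: 1870 genes for the array labelled si-Eos and 557 for the array labelled si-RL. By their bound, 541 and 257 of these were at least 2-fold apart. The faintest level still well above background was 2.85 on the array labelled si-Eos and 3.46 on the array labelled si-RL. Of the 168 genes at least 8-fold higher, 142 were above background on both untransduced arrays, and 94 of these were at least 2-fold higher in fresh Treg than in naive T cells, against 2 that were lower. Among the 82 genes at least 8-fold lower, the same split of 77 was 3 and 40. Over all 16439 genes measured on the 4 arrays it was 898 and 295. The untransduced pair shares no array with the hairpin pair.

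A 2-fold call could be checked against another probe only where the gene had another measured probe. Of 1107 called genes with such a probe, 197 (17.8%) had a probe that went the opposite way. Of 203 called at 4-fold with such a probe, 19 (9.36%) did. Calls of genes without another measured probe could not be checked in this way.

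Proteins that work with Foxp3 split. Of 18 measured genes in a list of Foxp3 and its partners, 3 were at least 2-fold higher, 4 lower, and the median was 0.06. A further 2 were above background on the array labelled si-Eos alone, both at least 2-fold higher by their bound. Besides Foxp3, the higher ones were Irf4, a factor of activated Treg (24.6, 83, 379 and 86.2, or 2.14 ± 0.20), and Xbp1, a factor of the secretory stress response (143, 180, 536 and 128, or 2.07 ± 0.20). Lef1 (6959, 1578, 1108 and 8131, or -2.88 ± 0.20) and Foxp1 (1061, 912, 916 and 1883, or -1.04 ± 0.20, and -0.93 with normexp), factors of naive T cells, were lower. Runx1 was lower by a log2 difference of -1.06 ± 0.20, though another of its probes gave 0.25.

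Eos acts through corepressors, whose own mRNAs were mostly under 2-fold apart. Of 24 measured CtBP and corepressor genes, 1 was higher and 2 lower, and the median of -0.17 turned to 0.12 without scaling between arrays. The lower exceptions were the Groucho corepressors Tle4 (1551, 691, 304 and 1184, or -1.96 ± 0.20) and Tle1 (276, 159, 86.3 and 301, or -1.80 ± 0.20). The higher was the histone methyltransferase Suv39h1 (59, 59.4, 78 and 36.6, or 1.09 ± 0.21, and 0.79 with normexp). Among 19 DNA and histone methylation enzymes, 2 were higher and 1 lower. They were Ezh2, the Polycomb methyltransferase (74.4, 237, 580 and 281, or 1.05 ± 0.20), Dot1l (78.5, 91.5, 308 and 115, or 1.43 ± 0.20) and, lower, Kmt2d (47.6, 52.2, 27.5 and 86, or -1.64 ± 0.21).

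Genes of Treg identity were higher on the array labelled si-Eos. Of 36 measured Treg core genes, 27 were at least 2-fold higher and none lower, with a median of 2.41. Of the hairpin arrays, 4 more genes were well above background on the array labelled si-Eos alone. Il10 was at 4.29, 52.1, 548 and 3.11, and Ccr8 at 1.51, 31.1, 127 and 3.21. Klrg1 (5.37, 135, 48.8 and 2.56) and Itgb8 (304, 414, 198 and 1.7) were below fresh Treg on that array, and Itgb8 was high in naive T cells too. The 8 markers used to check the cell type were above background on both hairpin arrays. Their scaled levels summed to 3252 in naive T cells, 19369 in fresh Treg, 40707 on the array labelled si-Eos and 14688 on the array labelled si-RL. Tnfrsf18 made up 10903 of the last sum. On the array labelled si-RL, Tnfrsf18 and Il2ra stood above fresh Treg and the other markers below it. Among the latter, Itgae was at 23.6, 967, 1085 and 10.1, and Nt5e at 67.4, 523, 458 and 66.5. All 8 markers were at least 2-fold higher on the array labelled si-Eos than on the array labelled si-RL. CD4 T cell markers were above background on both arrays too (8 of 8, sums 34120 and 19927). For Il2ra (CD25, on which the cells were enriched), the levels were 7.78, 313, 2178 and 431, or 2.34 ± 0.20, while its 5′-most probe gave -0.53 ± 0.20.

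TNF-family receptors, which carry survival and costimulatory signals, went both ways: of 14 measured, 6 were higher and 3 lower. Tnfrsf8 (CD30) was at 7.62, 35.5, 373 and 12.7, a difference of 4.87 ± 0.22. Tnfrsf1b (TNFR2) was at 165, 573, 1020 and 93.9, or 3.44 ± 0.20. Tnfrsf26 (264, 170, 104 and 752, or -2.85 ± 0.20) and Tnfrsf25 (DR3; 2147, 2502, 616 and 1735, or -1.49 ± 0.20) were higher on the array labelled si-RL instead. Among 12 ligands, 4 were higher, such as Tnfsf10 (TRAIL; 52.5, 101, 112 and 16.6, or 2.75 ± 0.21, and 1.80 with normexp), and 1 was lower, Ltb, the membrane anchor of lymphotoxin (11006, 11164, 4766 and 26791, or -2.49 ± 0.20).

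In the IL-2 pathway, whose ligand was in the medium of both samples, the receptors were higher in 2 of 7 and the kinases and STATs in 1 of 6. The signal chain Il2rb was at 270, 3808, 6008 and 3148, or 0.93 ± 0.20, and Il2rg, the common gamma chain, at 1182, 910, 515 and 725, or -0.49 ± 0.20. Of 11 feedback and target genes of the pathway, 1 was higher (Osm, 1.04 ± 0.21, and 0.68 with normexp), with a median of 0.16. Another 2 were lower, Bcl2 and the survival kinase gene Pim2 (-1.08 ± 0.20, and -0.95 with normexp). Among the feedback inhibitors, Cish was at 342, 2266, 7482 and 5737, or 0.38 ± 0.20, and Socs2 at 19.5, 531, 2174 and 1453, or 0.58 ± 0.20. The survival gene Bcl2 was lower on the array labelled si-Eos (957, 995, 1157 and 3033, or -1.39 ± 0.20), and its relative Bcl2a1b higher (432, 1610, 2171 and 308, or 2.82 ± 0.20). The death gene Bcl2l11 (Bim) was lower at 128, 128, 248 and 752, or -1.60 ± 0.20.

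Inhibitory receptors, which dampen T cell activation, were at least 2-fold higher in 6 of 11 and lower in 1 (Vsir, -1.44 ± 0.20). Pdcd1 (PD-1) was at 58.1, 505, 1584 and 45.8, and Pdcd1lg2, a ligand of PD-1, at 2.34, 38.1, 120 and 5.86, or 4.36 ± 0.27 (normexp 2.48). A further 4 genes of the list were above background on the array labelled si-Eos alone, among them Havcr2 (TIM-3), at least 98.9-fold higher. Costimulatory receptors were higher in 5 of 11 and lower in 3. Cd2 (1.85 ± 0.20), Cd5 (1.65 ± 0.20), Cd6 (1.56 ± 0.20) and Icos (1.09 ± 0.20) were higher. Lower were the SLAM receptors Slamf6 (477, 436, 23.6 and 176, or -2.89 ± 0.21) and Ly9 (-1.79 ± 0.20), together with Cd226 (336, 559, 47 and 284, or -2.60 ± 0.21).

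Several granzyme genes that were low in both untransduced samples were high on the array labelled si-Eos. Of these, Gzmd was raised on the array labelled si-RL as well, though less. Among 4 measured granzymes, 3 were higher. Gzmc was at 14, 11.5, 278 and 23.3, or 3.58 ± 0.21, and Gzmd at 9.26, 10.6, 816 and 99.2, or 3.04 ± 0.20. Gzma was above background only on the array labelled si-Eos of this pair, at least 46.9-fold higher. Nkg7, a granule membrane protein, was at 77, 529, 5045 and 97.5, or 5.69 ± 0.20, and the protease Ctsw at 269, 363, 856 and 30.1, or 4.83 ± 0.21. These are also NK and cytotoxic cell genes. Of 10 NK cell markers, 8 were above background on the array labelled si-Eos and 4 on the array labelled si-RL, with summed levels of 444 and 121. In naive T cells and fresh Treg the counts were 5 and 8, with sums of 210 and 88.2. Of the 4 markers measured on both hairpin arrays, 1 was at least 2-fold higher and none lower (median 0.24). Klrb1c was at 8.95 and 14.1 on the arrays labelled si-Eos and si-RL. Ncr1 and Klre1 were above background on neither hairpin array. Both CD8 T cell markers, Cd8a and Cd8b1, were above background on both hairpin arrays, with summed levels of 247 and 198, against 392 in naive T cells and 299 in fresh Treg. The Cd8a probes did not go one way, with 9.23 and 7.08 on the brightest and 5.52 and 12.1 on another. The part of NK and CD8 T cells in the result was not tested.

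Chemokines and osteopontin were higher in 6 of 10 measured, with none lower. Besides Ccl3, Ccl4 and Spp1 (osteopontin), Ccl9 was at 7.25, 6.24, 75.1 and 5.07, or 3.89 ± 0.33 (normexp 1.76), and Ccl20, a ligand for Ccr6, at 5.07, 10.3, 119 and 12.4, or 3.26 ± 0.23 (normexp 1.96). Xcl1 was above background on the array labelled si-Eos alone, at least 40.9-fold higher. Effector cytokines were higher in 4 of 12, led by Ifng (145, 1052, 1231 and 44.7, or 4.78 ± 0.21) and Csf1, a macrophage growth factor (13.4, 227, 226 and 27.4, or 3.05 ± 0.21). For both, the array labelled si-Eos stood near fresh Treg, and the array labelled si-RL below it.

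Homing receptors went both ways. In a list of chemokine receptors and other migration receptors, 7 of 15 measured were higher and 2 lower. Cxcr5, which leads T cells to follicles, was at 27.8, 276, 311 and 6.17, or 5.66 ± 0.28 (normexp 3.49). Ccr4 (76.9, 437, 1087 and 272, or 2.0 ± 0.20), a receptor of skin homing, was higher as well. The lower ones were S1pr1, the sphingosine-1-phosphate receptor by which T cells leave lymph nodes (1476, 562, 16.2 and 1373, or -6.41 ± 0.21), and Ccr9, the gut-homing receptor (27.7, 55.4, 10.9 and 51.3, or -2.23 ± 0.22, and -1.39 with normexp). Ccr7, the lymph node receptor, was higher (3982, 1628, 3066 and 1094, or 1.49 ± 0.20).

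Helper lineage factors were higher in 9 of 20 and lower in 1. Zbtb32, a repressor of T cell activation, was at 29.3, 145, 599 and 6.87, or 6.45 ± 0.26. Tbx21 (T-bet, the Th1 factor) was at 26.5, 149, 1358 and 149, or 3.19 ± 0.20. Of the hairpin arrays, only that labelled si-Eos thus stood out from fresh Treg. Nfil3 (85.1, 358, 2214 and 300, or 2.88 ± 0.20) and Prdm1 (Blimp-1; 17.8, 48.1, 138 and 25.4, or 2.45 ± 0.21) were likewise highest on the array labelled si-Eos. The lower one was Bcl6, the follicular helper factor (206, 380, 118 and 318, or -1.43 ± 0.20). In the related family of memory factors, Eomes was higher (7.28, 16.5, 54.7 and 5.72, or 3.26 ± 0.31, and 1.22 with normexp), and Id3 lower (109, 247, 24.2 and 95.3, or -1.98 ± 0.21).

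**Figure D2:**
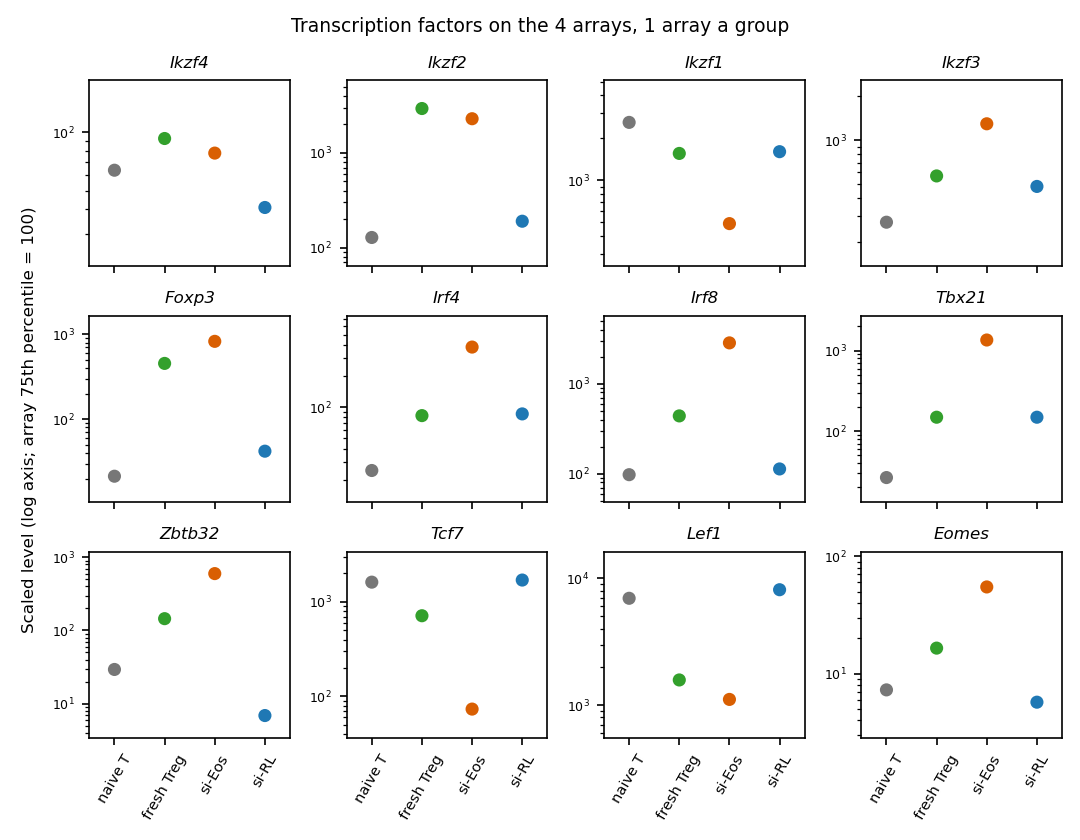
Scaled level of 12 transcription factors on each of the 4 arrays, on log axes, 1 point per array. Foxp3, Ikzf2 and Zbtb32 are low on the array labelled si-RL, Tbx21 and Irf4 are highest on the array labelled si-Eos, and Tcf7 and Lef1 are highest on the array labelled si-RL.

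Genes of naive and resting T cells were higher on the array labelled si-RL. Of 13 measured naive-cell genes, 9 were at least 2-fold lower on the array labelled si-Eos and 1 higher (median -2.28), and of 17 factors 6 were lower and 1 higher (median -0.60). Tcf7 was at 1617, 714, 73.6 and 1702, so that the array labelled si-RL reached the level of naive T cells. Il6ra, a receptor of resting T cells, was at 343, 278, 67.1 and 326, or -2.28 ± 0.20. Rapgef4, a cAMP-activated exchange factor, was above background on the array labelled si-RL and not on the other, at least 88.5-fold higher there. The 6 naive CD4 T cell markers summed to 18616 in naive T cells, 6451 in fresh Treg, 5090 on the array labelled si-Eos and 14472 on the array labelled si-RL. Lef1 made up 6959 of the first sum and 8131 of the last. Of the 6 markers, 4 were at least 2-fold lower on the array labelled si-Eos. Ccr7 went the other way, at 3982, 1628, 3066 and 1094. Some of these markers belong to the list itself, and a share of naive cells among the sorted cells was not tested.

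Phosphodiesterases, the enzymes that break down cAMP, were lower on the array labelled si-Eos. Of 9 measured, 6 were at least 2-fold lower and none higher, with a median of -1.83. Pde5a was at 287, 19.2, 7.72 and 136, or -4.14 ± 0.24 (normexp -2.54). Pde2a was at 852, 904, 120 and 1252, or -3.38 ± 0.20, with -0.94 on another probe, and Pde4b at 2021, 1263, 173 and 615, or -1.83 ± 0.20. Pde4d (-2.09 ± 0.21) and Pde7a (-1.47 ± 0.20) followed. The adenosine and purine genes went both ways, with 4 of 14 higher and 3 lower (median 0.06). Higher were Entpd1 (CD39; 12.6, 116, 123 and 11.5, or 3.42 ± 0.22, and 2.14 with normexp) and Nt5e (CD73; 67.4, 523, 458 and 66.5, or 2.78 ± 0.21), enzymes that make extracellular adenosine. The ATP receptor P2rx7 was lower (239, 434, 92.9 and 324, or -1.80 ± 0.20). The cAMP-linked factors Crem (1.72 ± 0.20) and Creb1 (-1.02 ± 0.20, and -0.95 with normexp) each had a probe of the opposite sign.

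Several relay proteins of the antigen receptor were lower on the array labelled si-Eos. Of 24 measured signalling genes, 4 were higher and 5 lower. The lower ones were the adaptor Themis (994, 280, 101 and 1756, or -4.12 ± 0.20), the adaptor Grap2 (755, 392, 99.6 and 629, or -2.66 ± 0.20), the Ras activator Rasgrp1 (2207, 1174, 222 and 1252, or -2.49 ± 0.20), and the kinases Txk (-2.30 ± 0.20) and Prkcq (-1.46 ± 0.20). The kinase Zap70 (1.03 ± 0.20) and the phosphatase Ptpn6 (1.30 ± 0.20, and 0.60 as the mean of its probes) were higher.

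Genes that receptor signals induce went both ways. In the list of Nr4a, Egr and NF-kB-linked genes, 8 of 18 were higher and 2 lower (median 0.55), and of 10 AP-1 members 2 were higher and 3 lower (median 0.42). Egr2 was at 238, 520, 2788 and 290, or 3.27 ± 0.20, and Nr4a2 at 42.1, 101, 205 and 9.98, or 4.36 ± 0.23 (normexp 2.88). Among AP-1 members, Fos was at 3962, 3064, 103 and 726, or -2.82 ± 0.20, and Fosb at 244, 250, 34.1 and 132, or -1.95 ± 0.21. Both hairpin arrays were thus below the untransduced ones for Fos. Negative feedback genes were higher in 10 of 19 and lower in 4, but their median of 1.03 turned to -0.11 among genes with a signal of at least 200 on both arrays. Dusp4, a MAP kinase phosphatase, was at 54.7, 881, 3016 and 67.2, or 5.49 ± 0.20, and Rgs16, a brake on G protein signals, at 23.2, 300.0, 1204 and 29, or 5.38 ± 0.21, while Dusp1 was lower (4478, 5394, 322 and 1004, or -1.64 ± 0.20).

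Cytokine receptors for IL-1 and IL-18 were lower in 3 of 5, with 1 higher, and their median of -1.37 turned to 1.18 without the filter on dim probes. Il18r1 was at 359, 285, 81.8 and 211, or -1.37 ± 0.20. Il1rl1 (ST2, the IL-33 receptor) was at 17.9, 119, 119 and 13.9, or 3.1 ± 0.23 (normexp 1.95). The decoy receptor Il1r2 was above background on the array labelled si-Eos alone, at least 86.2-fold higher. Il12rb1, part of the IL-12 receptor, was at 41.8, 382, 1861 and 97.5, or 4.25 ± 0.20.

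**Figure D3:**
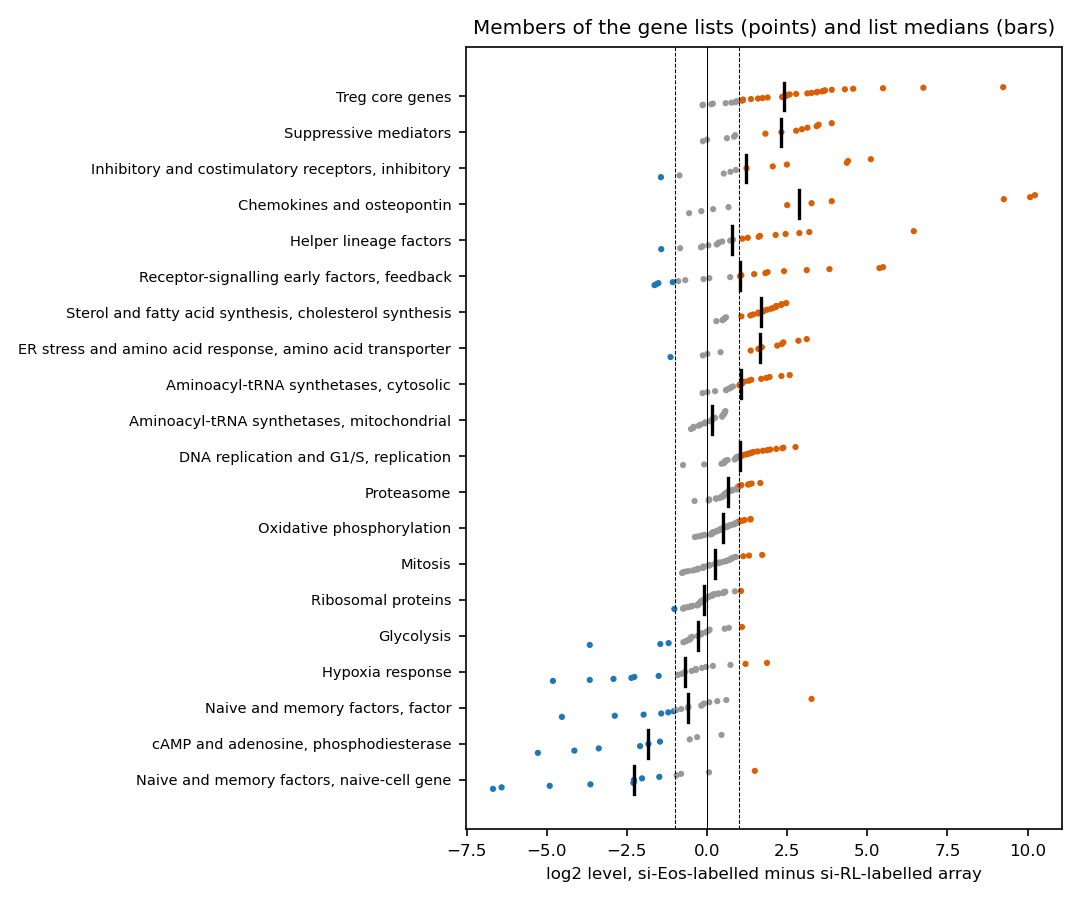
Log2 difference of every measured member of 20 gene lists (points), with list medians as bars and dashed lines at 2-fold. Orange points are at least 2-fold higher and blue points at least 2-fold lower on the array labelled si-Eos; Treg core genes have the median 2.41, cytosolic tRNA synthetases 1.05, mitochondrial ones 0.16 and naive-cell genes -2.28.

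Metabolic genes split by pathway. Cholesterol synthesis was higher in 15 of 20 measured enzymes, none lower, with a median of 1.67. The early enzyme Hmgcs1 differed by 1.44 ± 0.20, and the later Fdft1, which makes squalene, had levels of 120, 122, 276 and 62.3, or 2.15 ± 0.20. The array labelled si-RL was thus the lowest and the array labelled si-Eos the highest of the 4 for Fdft1. Nsdhl and Lss, at 2.33 and 2.16 on their brightest probes, came to 1.36 and 1.27 with normexp, and each had a probe with the opposite sign (-0.20 and -0.39). Genes of sterol regulation and uptake were higher in 2 of 15, one of them the sensor Insig1 (1.21 ± 0.21, and 0.80 with normexp), and lower in 1 (median 0.34). The lower one was Mylip, a ubiquitin ligase, at 598, 296, 62.9 and 371, or -2.56 ± 0.20. Fatty acid synthesis was higher in 2 of 11 and lower in 1.

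Many amino acid genes were higher on the array labelled si-Eos. Under low amino acids or ER stress, the factor ATF4 is translated and binds a composite element in its targets. Of 18 measured ATF4-response genes, 8 were higher and 1 lower, and of 12 amino acid transporters 8 were higher and 1 lower, Slc38a9 (-1.14 ± 0.20), with a median of 1.65. Asns, which makes asparagine, was at 69, 213, 2149 and 250, or 3.1 ± 0.20. Chac1, which degrades glutathione, was at 6.2, 8.18, 81.2 and 11.4, or 2.83 ± 0.23 (normexp 1.49). The stress factor Atf3 was at 23, 62.5, 596 and 54.6, or 3.45 ± 0.21. Among the transporters, Slc1a4 was at 12.5, 6.95, 84.6 and 9.81, or 3.11 ± 0.24 (normexp 1.62), and Slc7a5, the leucine carrier, at 152, 201, 740 and 148, or 2.33 ± 0.20. The lower ATF4-list member was Vldlr (-2.06 ± 0.20), above background on the hairpin arrays but not in fresh Treg.

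The enzymes that load tRNAs with amino acids differed by compartment. Of 20 cytosolic synthetases 12 were at least 2-fold higher and none lower (median 1.05), and of 17 mitochondrial ones none passed 2-fold in either direction (median 0.16). Aars, for alanine, was at 734, 658, 1754 and 294, or 2.58 ± 0.20, Mars1, for methionine, at 187, 171, 335 and 67.1, or 2.32 ± 0.20, and Gars, for glycine, at 130, 107, 271 and 74.9, or 1.85 ± 0.20. The mitochondrial gene farthest from 0 was Yars2, at 148, 145, 210 and 142, or 0.57 ± 0.20.

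Promoters from RefSeq (GRCm38.p6) were searched over the 250 bases before each start site for TGATGNAA, the letters shared by amino acid response elements, on both strands. The letters stood in 3.45% of 32851 promoters. Counting any listed promoter of a gene, they were found for 5 of 18 ATF4-response genes with a promoter in the table and for 3 of 13 cytosolic synthetases, among them genes that were higher and, as Vldlr shows, 1 that was lower. The windows below show where the match lies in 5 genes of these lists, each 60 bases long, 5′ to 3′ in the direction of the gene, with the match in capitals. None of the genes shown here held both motifs searched. A match is a description of the letters and not a bound site.
Asns, chr6:7693210-7693269, minus strand: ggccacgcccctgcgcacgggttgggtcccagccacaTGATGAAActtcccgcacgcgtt
Atf3, chr1:191183410-191183469, minus strand: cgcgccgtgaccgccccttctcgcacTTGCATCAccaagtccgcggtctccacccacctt
Chac1, chr2:119351023-119351082, plus strand: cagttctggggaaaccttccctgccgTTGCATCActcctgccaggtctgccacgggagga
Gars, chr6:55037941-55038000, plus strand: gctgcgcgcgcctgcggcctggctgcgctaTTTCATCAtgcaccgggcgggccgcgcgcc
Tars, chr15:11399659-11399718, minus strand: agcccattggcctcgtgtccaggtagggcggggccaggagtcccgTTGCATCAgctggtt
The match read forward in Asns and on the opposite strand in the other genes shown. For the cholesterol genes the letters TCACNCCAC, part of a sterol response element, stood in 1.05% of all promoters and in 1 of 15 promoter-listed synthesis genes, Hmgcs1 (chr13:119690188-119690247, plus strand), with the match in capitals:
Hmgcs1: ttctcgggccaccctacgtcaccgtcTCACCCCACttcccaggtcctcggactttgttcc

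**Figure D4:**
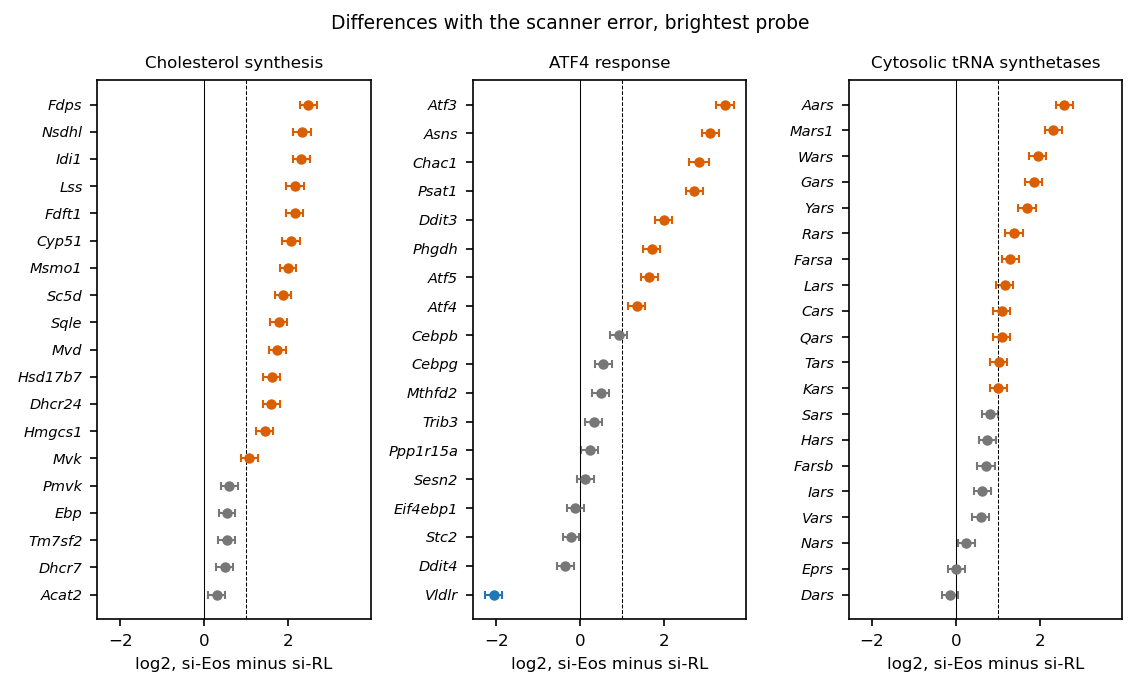
Log2 difference of 19 of the 20 measured cholesterol synthesis genes and of each measured gene of 2 other lists, as points with the scanner error as bars, sorted by size, with a dashed line at 2-fold higher. Cholesterol synthesis genes lie between 0.29 and 2.47, ATF4-response genes between -2.06 and 3.45, and cytosolic synthetases between -0.14 and 2.58.

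Lists of protein production and turnover had smaller medians. Ribosome biogenesis factors were higher in 7 of 25 (median 0.75) and proteasome subunits in 6 of 35 (median 0.64), with none lower in either list. Ribosomal proteins themselves had 1 of 52 higher and 1 lower, and their median of -0.09 turned to 0.20 without scaling. Unfolded protein response genes were higher in 8 of 20, such as the chaperone partner Hyou1 (717, 773, 932 and 313, or 1.57 ± 0.20), and lower in 1, the cochaperone Dnajc3 (-1.03 ± 0.20). Of these 9 genes, 3 had a probe of the opposite sign, Dnajc3 among them. Of 14 pentose phosphate and serine enzymes 4 were higher, all of the serine and glycine branch, with Psat1 at 141, 277, 542 and 82.4, or 2.72 ± 0.20, and Phgdh at 791, 1343, 2238 and 688, or 1.70 ± 0.20.

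Replication genes were higher in 15 of 30 and lower in none (median 1.04), and mitosis genes in 3 of 30 (median 0.25). Rfc3, which loads the replication clamp, was at 39.5, 72.8, 218 and 32.2, or 2.76 ± 0.21, and the helicase subunit Mcm5 at 424, 764, 1015 and 199, or 2.35 ± 0.20. The mitotic kinase gene Plk1 was at 65.5, 205, 337 and 189, or 0.83 ± 0.20. For Mcm5 and Rfc3 the array labelled si-RL was below naive T cells, whereas for Plk1 it was near fresh Treg.

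Genes of the response to low oxygen, which runs through HIF factors, held wide differences toward the array labelled si-RL. Of 19 measured hypoxia genes, 6 were at least 2-fold lower on the array labelled si-Eos and 2 higher (median -0.69). P4ha2, a collagen hydroxylase, was at 39.5, 2.33, 57 and 1599, or -4.81 ± 0.20, and was not above background in fresh Treg. Ankrd37 was at 101, 78.2, 137 and 1036, or -2.92 ± 0.20. Vegfa, the vessel growth factor, was at 18.1, 14.3, 201 and 1034, or -2.36 ± 0.20. Both hairpin arrays were above the untransduced ones for Vegfa and Ankrd37, and the array labelled si-RL more so. Against the 1 fresh Treg array, which both differences share, Ndrg1 stood at 1.97 on the array labelled si-Eos and 4.24 on the array labelled si-RL, and Bnip3 at 3.84 and 4.33.

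Most glycolytic enzymes were under 2-fold apart, with 1 of 21 higher and 3 lower, and the median of -0.29 came to -0.01 without scaling. Hk2 was at 8.48, 117, 1634 and 1543, or 0.08, and Pgk1 at 1469, 1651, 10536 and 10572, so both hairpin arrays stood alike above fresh Treg. The 1 higher gene differed by 1.09. The 3 lower genes were Pdk1, which turns pyruvate away from mitochondria (140, 70.6, 78.5 and 991, or -3.66 ± 0.20), the glucose carrier Slc2a3 (319, 559, 584 and 1607, or -1.46 ± 0.20) and Pfkfb3 (308, 291, 313 and 722, or -1.20 ± 0.20). For these 3 the array labelled si-Eos was near fresh Treg.

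**Figure D5:**
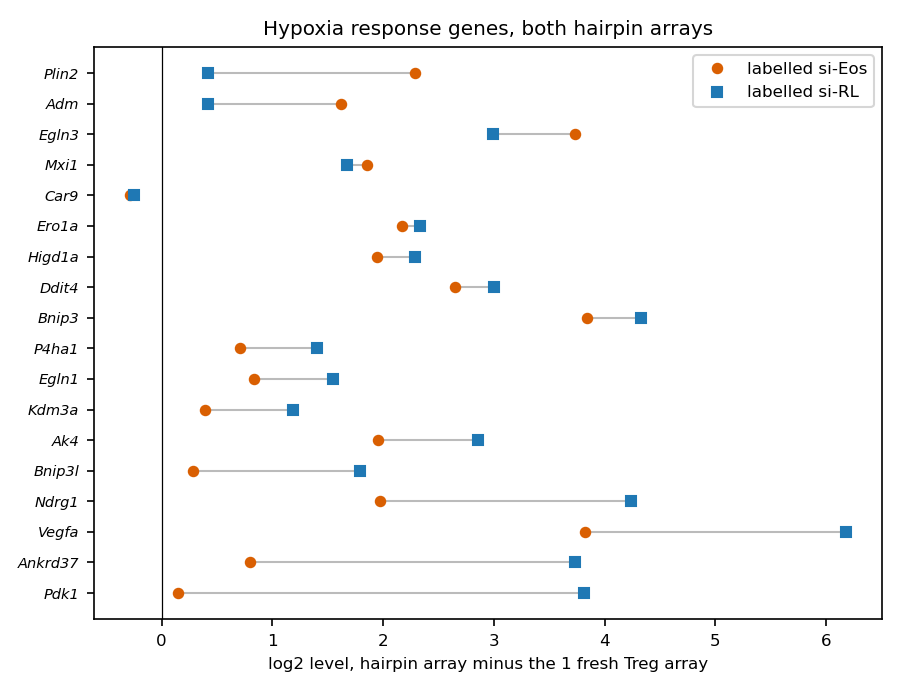
Log2 level of 18 hypoxia response genes on each hairpin array minus the same fresh Treg array, leaving out P4ha2, which was not above background there. Vegfa lies at 3.82 and 6.18 and Pdk1 at 0.15 and 3.81 on the arrays labelled si-Eos and si-RL, whereas Plin2 and Egln3 are higher on the array labelled si-Eos.

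Interferon-stimulated genes divided. Effectors were higher in 5 of 22 and lower in 4, and regulators and GTPases higher in 7 of 20 and lower in 1. Ifit1 was at 244, 147, 139 and 26.1, or 2.42 ± 0.21, and Isg15 at 179, 161, 168 and 39.2, or 2.10 ± 0.21, so the array labelled si-RL was low and the other like fresh Treg. Ddx58 (RIG-I) ran the other way at 116, 59.6, 26 and 79.6, or -1.62 ± 0.21, and so did Rtp4 at 1750, 1259, 79.6 and 228, or -1.52 ± 0.20. Irf8, an interferon-regulated factor, was at 97.6, 439, 2842 and 113, or 4.66 ± 0.20, and Tap1, the peptide transporter of antigen presentation, at 396, 387, 564 and 88.6, or 2.67 ± 0.20.

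Class II antigen presentation genes were higher in 4 of 9 and lower in 1. Cd74 was at 260, 423, 83.4 and 14.3, or 2.54 ± 0.23 (normexp 1.49), and H2-Eb1 at 30.4, 92.7, 64.8 and 17.7, or 1.87 ± 0.22 (normexp 0.96), both below fresh Treg on the hairpin arrays. Of 12 B cell markers, 10 were above background on the array labelled si-Eos and 7 on the array labelled si-RL, with summed levels of 265 and 143 against 757 in fresh Treg, and their part in the result was not tested.

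Among stress genes, p53 targets were close to the background, with 2 of 23 higher and 3 lower. Perp, a death-associated target, was at 2.18, 13.8, 301 and 32.5, or 3.21 ± 0.21, and Sesn1 lower at 1006, 960, 378 and 1210, or -1.68 ± 0.20. In the antioxidant list, Srxn1 was at 2.36, 15.5, 369 and 7.91, or 5.55 ± 0.25, while Nqo1, of the same response, was lower at 3.97, 5.45, 6.75 and 21.5, or -1.67 ± 0.27 (normexp -0.76). In a list of the RNA interference machinery, which a hairpin uses, and of RNA editing, 2 of 15 genes were higher and 1 lower. They were the editing enzyme Adarb1 (10.3, 13.8, 240.0 and 11.9, or 4.34 ± 0.22), Tarbp2 (1.12 ± 0.20, and 0.98 with normexp) and, lower, Ago1 (-1.56 ± 0.20, with -0.20 on another probe). Ago2, which cuts the target, was at 425, 468, 1242 and 915, or 0.44 ± 0.20.

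The widest differences also held genes outside these lists. Higher on the array labelled si-Eos were Ly6a (Sca-1; 37.1, 253, 1649 and 6.92, or 7.90 ± 0.26), Inhba, a subunit of activin (1.31, 2.44, 398 and 4.06, or 6.61 ± 0.34, and 4.08 with normexp), and the insulin genes Ins2 (8.79, 7.88, 1730 and 9.4, or 7.52 ± 0.24) and Ins1 (3.41, 4.56, 294 and 4.02, or 6.19 ± 0.35, and 3.66 with normexp). The insulin genes are closely similar copies whose probes may read each other's mRNA. Lower were Slpi, a protease inhibitor (383, 170, 3.59 and 188, or -5.71 ± 0.31, and -3.29 with normexp), and Ms4a4b, a T cell membrane protein (8523, 6738, 212 and 9974, or -5.55 ± 0.20), with its neighbour Ms4a4c at 2229, 1635, 76.6 and 2210, or -4.85 ± 0.20. The Ms4a4 genes were thus high on the 3 other arrays and low on the array labelled si-Eos. Genes above background on only 1 hairpin array numbered 1870 for the array labelled si-Eos and 557 for the array labelled si-RL, and 541 and 257 of them were at least 2-fold apart by their bound.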

How the data were processed

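RNA of 4 samples, amplified linearly and labelled with Cy3 per the labels' protocols, was hybridised to 1-colour Agilent arrays. Each deposited file gave a linear intensity for every spot, background-subtracted by Agilent Feature Extraction 9.5.3.1, with probe positions on mm8, per the file headers. All 4 arrays were on 1 slide. The deposited value table of intensity per spot was not used.

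The processed intensity was divided by its 75th percentile over non-control probes of the same array and put on a log2 scale. Flagged spots were left out (71 of 43379 on the array labelled si-Eos, 86 on the array labelled si-RL), replicate spots were averaged, and no spot was saturated. RefSeq tables of GRCm38.p6 updated the names by accession for 24488 of 41174 probes, and the file's own name stayed for 8061. A gene was represented by its brightest probe over the 4 arrays. A gene above background on 1 array was given as "at least N-fold", against whichever was higher on the other array, its own probe or the faintest probe still well above background. The number of arrays limits the precision.

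No test could be run. The counting step was tested on simulated data. Other scalings (median, none, spike-in and, with limma 3.58.1 in R 4.3.3, quantile and loess), normexp background (limma, offset 50), other filters on dim probes and other rules for several probes were tried. Named were Ikzf4, Foxp3 and the Ikaros family, the 15 widest differences each way, up to 6 members per list at least 2-fold apart plus those needed for the order of a pathway, and up to 10 genes each way above background on 1 array. Not all are in the text, some members are counted in their lists but not reported by name here, and a few members, some under 2-fold apart, were named after their values were seen. The gene lists and members were chosen with earlier results of these data known.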

Additional observations from a re-analysis of the deposited data

How the results depend on the processing

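With 1 array per group, no replicate could be left out, and no fit with a block was made. No paired analysis was possible because each group holds 1 array and no test was run. Without scaling, the counts of genes at least 2-fold higher and lower were 3093 and 1025, the share higher moved from 51.5% to 75.1%, and the median of all genes from 0.04 to 0.33. With normexp background they were 1136 and 825, without the filter on dim probes 3571 and 2861, and for genes with a signal of at least 200 they were 702 and 578. Normexp made the difference smaller by over 1.5 times in 23 of 141 named genes that were at least 2-fold apart, such as Ccl9 (3.89 to 1.76), Eomes (3.26 to 1.22) and Slpi (-5.71 to -3.29). It brought 9 of the 141 under 2-fold and turned the sign of 0. Ikzf4 came to 1.22 without scaling, 0.66 with normexp and 1.36 as the mean of measured probes, and Foxp3 to 4.59 without scaling and 3.63 with normexp. The Treg core median came to 2.70, 1.97 and, at a signal of at least 200, 1.89. The naive-cell gene median came to -1.99, -1.90, -1.49 at a signal of at least 200 and -2.03 as the mean of probes. Cholesterol synthesis came to 1.96, 1.32 and 1.40 in the same way, without the signal limit. Without scaling, glycolysis came to -0.01, cytosolic synthetases to 1.34 and replication to 1.32. The median of IL-1 and IL-18 receptors, -1.37, turned to 1.18 without the dim filter, and that of feedback genes to -0.11 at a signal of at least 200. The cause of these moves was not tested. Spike-in scaling was added after seeing the data and gave 1937 and 1642 genes.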

Other observations

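Some genes of other tissues and blood cells stood above background on the array labelled si-Eos only, among the hairpin arrays. Cyp11a1, the first enzyme of steroid hormone synthesis, was at least 48.8-fold higher there. Cpa3, a mast cell protease, had scaled levels of 107 and 3.48 on the arrays labelled si-Eos and si-RL, beside sums of 198 and 66.6 over 6 mast cell and basophil markers. Of these markers, 6 and 3 were above background, 0 of the 3 measured on both arrays were 2-fold apart, and Hdc was lower on the array labelled si-Eos (13.1 and 22.6). Pf4, a platelet chemokine, had 70.2 and 3.71, in a list of 7 erythrocyte and platelet markers with 3 and 2 above background and sums of 101 and 29.9, while Gp9 and Ppbp were above background on neither. Epcam, an epithelial adhesion gene, had 63.1 and 3.40, with 26.4 in fresh Treg. Of 9 stromal, epithelial and endothelial markers, 6 and 4 were above background, with sums of 136 and 92.7, and Pecam1 was lower on the array labelled si-Eos (22.0 and 49.9) while Cdh5 was above background on neither. Of 13 myeloid markers, 8 and 6 were above background on their brightest probe, with sums of 200 and 203, among them Cd68 (55.3 and 40.3), Mpo (43.1 and 33.9) and Csf1r (48.1 and 96.0), while Itgam, Adgre1, Elane and S100a8 were above background on neither. The part of these cell types in the results was not tested.

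A transcript of antibody-secreting cells separated both hairpin arrays from the untransduced ones. Jchain, the joining chain of secreted antibodies, had scaled levels of 2314 in naive T cells and 2251 in fresh Treg, and of 2.09 and 7.01 on the arrays labelled si-Eos and si-RL. The first of these was not above background on this probe, whereas another probe was, at 4.38 and 4.5. Other plasma cell markers did not all follow Jchain. Mzb1 did, at 101, 86.2, 7.71 and 13.9. Ighm was at 1382, 3398, 398 and 1355 on its brightest probe, but its other probes fell as Jchain did. They read 3564, 3201, 58.9 and 106 and, on a probe placed on chr6, 114, 123, 6.29 and 10.1. Tnfrsf17 was at 15.3, 19.3, 0.911 and 1.23, above background on neither hairpin array. Sdc1 was at 11.1, 16.2, 11.8 and 5.41. Of 5 plasma cell markers, 5, 5, 3 and 4 were above background, with sums of 3823, 5771, 421 and 1383. The part of such cells in the results was not tested.

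Reference genes were not all close: of 15 measured, 2 were at least 2-fold higher on the array labelled si-Eos, Tfrc (1.96 ± 0.20) and Gusb (1.21 ± 0.20), with a median of 0.16.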
